A study of Mus musculus with 12 samples.

Results

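The genes described here are 6 markers of the upper hair follicle and junctional zone, Lrig1, Lgr6, Plet1, Gata6, Prdm1 and Cst6, measured on 12 mouse microarrays. Members were taken by name: every probe other than controls that the array files assign to one of these symbols was kept, and where a gene had 2 probes, the one with the higher mean over all 12 arrays stands for it. This gave 6 of 34763 gene names and 9 of 55681 probes. The rule uses names only. A level here is the log2 of the processed spot intensity minus the log2 of the array's 75th percentile, so 0 stands for the 75th percentile of that array and a step of 1 for a 2-fold ratio. Levels of different probes cannot be set against each other, so each gene is compared only with itself.

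Each of the 12 groups had 1 array. The Col17a1 conditional knockout (cKO) mice carried a deletion driven from the K14 promoter, were 12 weeks old and had been given 2 mg of tamoxifen by intraperitoneal injection for 5 days, and the labels give them no strain. Their controls were wild-type C57BL/6 mice of the same age with the same tamoxifen course, so tamoxifen is shared by both groups. Aged wild-type C57BL/6 mice were at least 22 months old and young ones 8 weeks. Hair follicle stem cells (HFSCs) came from all 4 kinds of mice, plucked (taken 3 days after manual hair removal) and unplucked, sorted as SCA1-negative cells with high CD34 and ITGA6. Total epidermal cells and interfollicular epidermis cells (IFE, high for ITGA6 and SCA1) came from aged and young mice without plucking. The labels do not say whether the samples came from separate animals, so the spread behind the p-values is that between arrays and may be technical. With 1 array per group, it also takes in any difference in effect between the matched pairs of a fit.

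The hair follicle is a stack of compartments. The CD34-positive bulge lies below, and above it the isthmus, the junctional zone beside the sebaceous gland and the infundibulum connect it to the interfollicular epidermis. LRIG1 is a transmembrane protein with leucine-rich repeats that restrains ERBB receptor signalling and marks stem cells of the junctional zone in mouse skin. LGR6 is a receptor for R-spondins, which strengthen Wnt signalling, and marks stem cells of the isthmus. PLET1, recognised by the antibody MTS24, is a membrane-anchored surface protein of keratinocytes in the same region. GATA6 is a zinc-finger transcription factor of the upper follicle and sebaceous duct, and PRDM1 (BLIMP1) is a transcriptional repressor found in sebaceous gland and terminally differentiating keratinocytes. CST6, cystatin E/M, is a secreted inhibitor of cysteine proteases such as legumain and cathepsins, made in the infundibulum and the upper epidermis.

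Probe positions are on mm9, as the array files give them. For Lrig1, the probe used lies on chromosome 6 from 94554523 to 94554582 (minus strand) and the other from 94554811 to 94554870. For Lgr6, the probe used lies on chromosome 1 from 136880538 to 136880597 (minus strand) and the other from 136883782 to 136883841. Those 2 probes are far apart along the message: they start at bases 6600 and 2711 of the transcript given in the files. For Plet1, on the plus strand of chromosome 9, the probe used spans 50313107 to 50313166 (transcript base 1208) and the other 50307294 to 50307353 (transcript base 316). Gata6, Prdm1 and Cst6 had 1 probe each. That of Prdm1 lies on chromosome 10 from 44157089 to 44157148 (minus strand) and that of Cst6 on chromosome 19 from 5347982 to 5348041 (minus strand). The annotation of exons and coding parts was not used here.

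The probes not used for Lgr6 and Plet1 are shown because they differed from the probes used in some of the comparisons. They read 5′ to 3′ along the transcript, all in lower case because no part is singled out.
Lgr6 other probe: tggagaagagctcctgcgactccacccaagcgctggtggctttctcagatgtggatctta
Plet1 other probe: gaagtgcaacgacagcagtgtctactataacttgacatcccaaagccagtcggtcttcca
The Lgr6 sequence has no stop codon in any of its 3 forward frames, and the Plet1 sequence has 1 forward frame without one.

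Promoters are shown for Lrig1 and Lgr6, the pair of members whose levels moved most closely together over the arrays on the probes used. They were taken from RefSeq (GRCm38.p6), on the minus strand, from 250 bases before to 50 bases after the gene's start. The Lrig1 window is chr6:94700096-94700395 and the Lgr6 window chr1:135105227-135105526, on a build other than that of the probes.
Lrig1 promoter: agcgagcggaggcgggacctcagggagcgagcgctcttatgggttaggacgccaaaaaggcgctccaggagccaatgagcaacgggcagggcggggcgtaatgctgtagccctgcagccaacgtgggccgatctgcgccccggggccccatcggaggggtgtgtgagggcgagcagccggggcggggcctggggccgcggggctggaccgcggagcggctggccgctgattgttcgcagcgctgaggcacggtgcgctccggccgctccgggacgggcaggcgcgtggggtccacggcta
Lgr6 promoter: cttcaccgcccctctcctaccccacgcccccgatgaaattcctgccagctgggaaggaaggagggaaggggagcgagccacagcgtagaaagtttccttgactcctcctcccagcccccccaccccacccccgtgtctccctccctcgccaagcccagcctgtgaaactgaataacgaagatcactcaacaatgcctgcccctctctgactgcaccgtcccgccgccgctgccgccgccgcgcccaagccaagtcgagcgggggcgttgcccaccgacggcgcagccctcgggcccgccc
The letters G and C made up 73.0% of the Lrig1 window and 67.7% of the Lgr6 window, beside a median of 52.7% over 32851 promoters of the same length. Neither window held CTTTGA, a core of the TCF/LEF motif, or AGATAA, a core of the GATA motif, on either strand. These letters are in 16.0% and 11.2% of all such promoters. The absence of a match says nothing about binding.

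The arrays had 49.71% to 64.97% of their spots well above background, the lowest share on the unplucked cKO HFSC array. Aged and young samples lay on slide 1, in a slide row each, and cKO and control samples on slide 2. Age and slide row therefore cannot be told apart, nor can population and slide column. On slide 2 the control arrays lay in columns 1 and 2 and the cKO arrays in columns 3 and 4. Genotype and slide column cannot be told apart there. The sorting genes checked the labels: Cd34 stood between 3.62 and 6.68 on the 8 HFSC arrays and at 0.56 and 0.76 in total epidermis. In IFE it was too dim to stand well above background in aged mice and was at -3.04 in young ones. Ly6a, which encodes SCA1, ranged from 3.33 to 4.37 over the total epidermis and IFE arrays, and was at 0.30 or below on the HFSC arrays. Of the 9 member probes, 8 were well above background on all 12 arrays, and Gata6 on 11. Of the 6 genes named for the upper follicle, 5 were thus well above background in every CD34-high HFSC sample.

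The span over the 12 arrays differed widely among the members. Gata6 ranged from -5.20 to 0.19 (median -2.38) and Cst6 from -0.76 to 3.57 (median 0.84), spans of 42-fold and 20.1-fold, the first of which rests on an array on which Gata6 was not well above background. Plet1 ranged from 1.70 to 4.0 (median 2.83) and Lrig1 from 2.04 to 4.17 (median 2.79). Lgr6 ranged from 1.03 to 2.51 (median 1.86), and Prdm1 from 1.89 to 2.83 (median 2.49), the narrowest span at 1.92-fold.

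**Figure D1:**
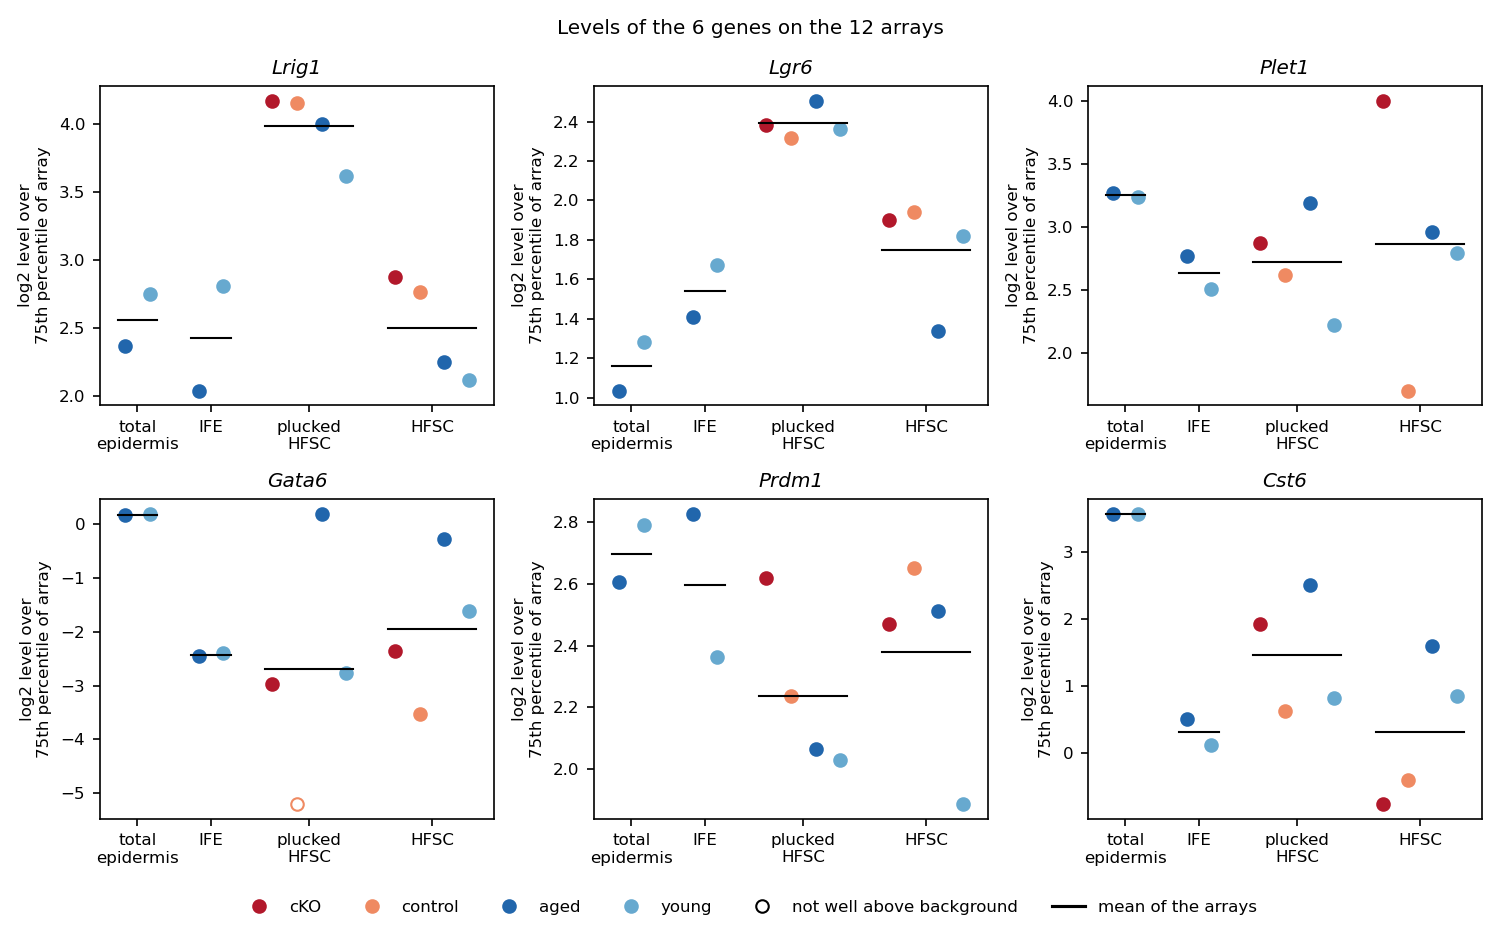
Each panel shows 1 gene, with the log2 level over the array's 75th percentile on the vertical axis and the kind of sample on the horizontal axis. Each point is 1 array, coloured by mouse type, the line is the mean of the arrays of that kind, and the open point is not well above background. Lrig1 stands at 3.62 or higher on the 4 plucked HFSC arrays and at 2.87 or lower elsewhere, and Cst6 is highest in total epidermis (3.57 on both arrays).

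Total epidermis, IFE and HFSCs were set against each other in aged and young mice, which asks where in the skin the 6 genes are expressed. Orders of the populations are given for the unplucked arrays of these mice, all on slide 1. The unplucked control and cKO HFSC arrays of slide 2 are left out of them. Cst6 was the only one of the 6 to pass the test in any population comparison: it rose 5.06-fold in total epidermis over HFSCs. Gata6 had its 2 highest levels among the unplucked aged and young samples in the same 2 total epidermis arrays, without passing. Lrig1, Lgr6, Plet1 and Prdm1 had fitted log2 differences between -0.62 and 0.50 in the 3 comparisons. In these bulk samples, fewer cells of a type and less RNA per cell cannot be told apart.

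Cst6 stood at 3.57 in aged and 3.57 in young total epidermis, at 0.51 in aged and 0.12 in young IFE, and at 1.60 in aged and 0.86 in young HFSCs. Both total epidermis arrays thus lay above every IFE and HFSC array, and both IFE arrays below the aged and young HFSC arrays. Unplucked control and cKO HFSCs, on slide 2, stood at -0.40 and -0.76, below both IFE arrays. The difference of total epidermis from HFSCs was 2.34 ± 0.31 on the log2 scale (SE, n = 2 pairs, limma adjusted p = 0.0378), with 1.97 in the aged and 2.71 in the young pair. With 1 of 6 members called, the count stands beside 1.87% of 23962 genes called higher and 2.02% called lower. The call is held narrowly: the adjusted p was between 0.0523 and 0.2 when 1 of the 6 arrays was left out in turn, 0.0738 without the filter on dim genes and 0.0608 over all 12 arrays, while the difference stayed between 2.06 and 2.69.

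IFE lay below total epidermis for Cst6, at a log2 difference of -3.26 ± 0.31 (SE, n = 2 pairs, limma adjusted p = 0.145), an 8.38-fold lower level in the aged and a 10.9-fold lower level in the young pair. No gene of 23962 passed in this comparison (0% called, smallest adjusted p 0.0508), and 977 had an unadjusted p under 0.05, among them Cst6 and Gata6. Against HFSCs, Cst6 in IFE differed by -0.92 ± 0.31 (adjusted p = 0.208). None of the 6 members was called in IFE against HFSCs, beside 2.09% of genes called higher and 2.64% called lower. At an unadjusted p under 0.05, 2 of the 6 passed there, again Cst6 and Gata6, beside 4823 of 23962 genes.

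The Gata6 probe lies on the plus strand of chromosome 18 from 11085039 to 11085097. Gata6 stood at 0.17 in aged and 0.19 in young total epidermis, at -2.45 in aged and -2.40 in young IFE, and at -0.27 in aged and -1.61 in young HFSCs. Total epidermis was the highest and IFE the lowest of the 3 populations in mice of either age, and their HFSC arrays lay between them. On slide 2, unplucked control HFSCs stood at -3.52, below both IFE arrays, and unplucked cKO HFSCs at -2.36. IFE was 6.14-fold lower than total epidermis in aged and 6.02-fold lower in young mice, a log2 difference of -2.60 ± 0.45 (SE, n = 2 pairs, adjusted p = 0.397). Against HFSCs, Gata6 differed by 1.12 ± 0.45 in total epidermis (adjusted p = 0.263) and by -1.49 ± 0.45 in IFE (adjusted p = 0.169). These values moved with the HFSC arrays: in total epidermis the difference was 1.81 without the aged and 0.43 without the young HFSC array, and in IFE -0.80 without the aged and -2.17 without the young one. With normexp background correction and quantile normalization they were 0.69 and -0.75, and the difference of IFE from total epidermis was -1.45.

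Among the 4 genes with small differences, Lrig1 stood at 2.37 and 2.75 in aged and young total epidermis, at 2.04 and 2.81 in aged and young IFE, and at 2.25 and 2.12 in aged and young HFSCs. IFE overlapped both other populations, and total epidermis lay above HFSCs. Lgr6 stood at 1.03 and 1.28 in aged and young total epidermis, at 1.41 and 1.67 in aged and young IFE, and at 1.34 and 1.82 in aged and young HFSCs. Total epidermis was the lowest population for Lgr6, and IFE and HFSCs overlapped. On the other Lgr6 probe the order was turned, with total epidermis 0.45 ± 0.30 above HFSCs against -0.42 ± 0.27 on the probe used (adjusted p of 0.473 and 0.453).

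Plet1 stood at 3.27 and 3.23 in aged and young total epidermis, at 2.77 and 2.51 in aged and young IFE, and at 2.96 and 2.80 in aged and young HFSCs. Its 3 populations did not overlap on these arrays, and its differences from HFSCs were 0.38 ± 0.27 in total epidermis (adjusted p = 0.496) and -0.24 ± 0.27 in IFE (adjusted p = 0.681). Unplucked control and cKO HFSCs, on slide 2, stood at 1.70 and 4.0, below IFE and above total epidermis. On the other Plet1 probe IFE lay 0.18 above HFSCs (adjusted p = 0.824). There HFSCs (2.31 in aged, 2.90 in young) overlapped IFE (2.88 in aged, 2.68 in young). Prdm1 stood at 2.60 and 2.79 in aged and young total epidermis, at 2.83 and 2.36 in aged and young IFE, and at 2.51 and 1.89 in aged and young HFSCs, with all 3 populations overlapping but for total epidermis above HFSCs.

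Counted pair by pair at a 2-fold difference in IFE against total epidermis, 2 of 6 members were lower in the aged pair (6.37% of genes were) and 2 of 6 in the young pair (9.90% were), Cst6 and Gata6 each time.

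Other genes of the upper follicle and of the families around the members also passed the test between populations. Of 7 other upper follicle genes, 2 fell in total epidermis against HFSCs, Aqp3 (a water and glycerol channel, -2.86 ± 0.41, adjusted p = 0.0418) and Fst (follistatin, an activin antagonist, -2.55 ± 0.36, adjusted p = 0.04), and none rose. The median difference of the 7 was -0.36, beside 0.07 for all genes. Above 0 lay 3 of them, Krt79, Defb6 (3.33, adjusted p = 0.0708) and Klk10 (0.90, adjusted p = 0.266). Of this list, only Krt79, Krt17, Defb6 and Klk10 were set as markers of upper follicle cells, so the median does not speak for such cells. In IFE against HFSCs 3 of 7 fell, Aqp3 (-3.50), Fst (-3.81) and Krt17 (a keratin of follicle epithelium, -2.58 ± 0.27, adjusted p = 0.0189). Krt79, a keratin of the infundibulum and sebaceous duct, stood at 4.76 and 5.59 in aged and young total epidermis and at 2.85 and 2.74 in aged and young IFE, against 3.07 and 2.68 in aged and young HFSCs. Its total epidermis arrays were the 2 highest, as for Cst6, but the difference from HFSCs of 2.30 ± 0.39 had an adjusted p of 0.0568.

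Relatives of LGR6 passed the test between HFSCs and the other populations, where Lgr6 itself did not. Whether they differed from Lgr6 was not tested. Lgr4, a receptor of the same family, fell in total epidermis (-2.56 ± 0.27, adjusted p = 0.0261) and in IFE (-2.86 ± 0.27, adjusted p = 0.0156) against HFSCs. Lgr5, the family member of the lower bulge, fell in total epidermis (-5.56 ± 0.47, adjusted p = 0.0205). In IFE it was not well above background on either array and at least 285-fold lower (adjusted p = 0.00938). Here "at least" sets the HFSC level against the lowest level well above background on the dim arrays. Rspo3, an R-spondin ligand, was not well above background in HFSCs and stood at least 4.21-fold higher in total epidermis (adjusted p = 0.0196) and at least 7.73-fold higher in IFE (adjusted p = 0.00999). Of the 5 tested genes of this list, 1 rose and 2 fell in both comparisons.

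For the other families, none of the 6 genes of the LRIG group (Lrig2, Lrig3 and the receptors they act on) and none of the 5 GATA and PRDM relatives with Myc passed in any of the 3 population comparisons. Lrig2 and Lrig3 differed from HFSCs by 0.16 and -1.02 in total epidermis (adjusted p of 0.878 and 0.174) and by 0.19 and -0.94 in IFE (0.859 and 0.204). Of 8 cystatins, their target proteases and transglutaminases, 2 fell in total epidermis: Tgm5, a transglutaminase (-6.06 ± 0.82, adjusted p = 0.0381), and Lgmn, legumain, a protease that CST6 inhibits (-1.93 ± 0.30, adjusted p = 0.046). In IFE 1 fell, Tgm5, which was not well above background there and at least 227-fold lower (adjusted p = 0.0159).

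Markers of other cells also differed between the populations. They did so in total epidermis, where Cst6 was higher than in HFSCs, and in IFE, where it was lower without passing. Against HFSCs, 5 of 7 bulge markers fell in total epidermis (median -4.52), Cd34 (-5.38), Postn (-5.06), Tbx1 (-4.87), Lhx2 (-4.52) and Nfatc1 (-2.46), with adjusted p between 0.0195 and 0.0425. In IFE 6 of 7 fell (median -5.88), the same 5 and Sox9 (-5.24), with adjusted p between 0.00938 and 0.0242. There Lhx2 was at -8.31, Postn at -5.88 and Nfatc1 at -3.38, Cd34 at -10.55 with 1 of 2 IFE arrays well above background, and Tbx1, well above background on neither, at least 1009-fold lower. Of 6 IFE markers 3 rose in both: Ly6a, the sorting gene (4.35 in total epidermis, 4.76 in IFE), Ly6d, a surface protein of its family (2.90 and 3.01), and Krt1, a keratin of differentiating epidermis (2.16 and 2.12), with adjusted p between 0.0166 and 0.0383. In either comparison 5 of the 6 lay above 0 (medians of 1.88 and 1.59). In IFE the exception was Lor, at -2.14 (adjusted p = 0.232). Of 3 melanocyte markers tested, 1 rose in both, Pmel, a pigment granule protein (2.46 and 2.63, adjusted p of 0.0373 and 0.0275). Dct, of the same list, was at 0.98 in total epidermis and -1.99 in IFE (adjusted p of 0.463 and 0.192). The summed linear level of the 4 T cell markers on the array was 8.44 to 15.1 in total epidermis, 6.52 to 7.21 in IFE and 0.533 to 2.23 in unplucked HFSCs, in multiples of the array's 75th percentile. All 4 T cell markers were well above background on both total epidermis arrays and 2 of 4 on both IFE arrays. Of these, Cd3e (2.85 ± 0.27, adjusted p = 0.0239) and Cd3g (at least 17.5-fold higher, adjusted p = 0.0195) rose in total epidermis over HFSCs. None of the 4 passed in IFE against HFSCs. There Thy1 was at 2.02, Cd3e at 0.03 and Cd3d at -0.82 (adjusted p of 0.0872, 0.965 and 0.591), and Cd3g was not well above background. A sum follows the brightest probes of its list, so the IFE sum does not speak for the Cd3 genes. The sum for the 5 Langerhans and myeloid markers was 7.90 to 17.8 in total epidermis, 2.73 to 2.78 in IFE and 0.994 to 2.53 in unplucked HFSCs, with 4 of 5 well above background in total epidermis and 3 of 5 in IFE. Sebaceous gland markers, of which none of the 5 tested passed, summed to 10.71 to 23.8 in total epidermis, 11.2 to 11.6 in IFE and 10.8 to 16.4 in unplucked HFSCs. Of 3 fibroblast markers tested 2 fell in both, the collagen genes Col1a2 (-4.69 in total epidermis and -4.68 in IFE, adjusted p of 0.0198 and 0.0121) and Col1a1, which was not well above background in either and at least 4.21-fold and 2.96-fold lower (adjusted p of 0.0466 and 0.0468). All 6 summed to 0.414 to 0.584 in total epidermis and 0.387 to 0.50 in IFE, against 4.27 to 9.18 in unplucked HFSCs. The part of these cells in the levels of Cst6 and Gata6 was not tested.

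**Figure D2:**
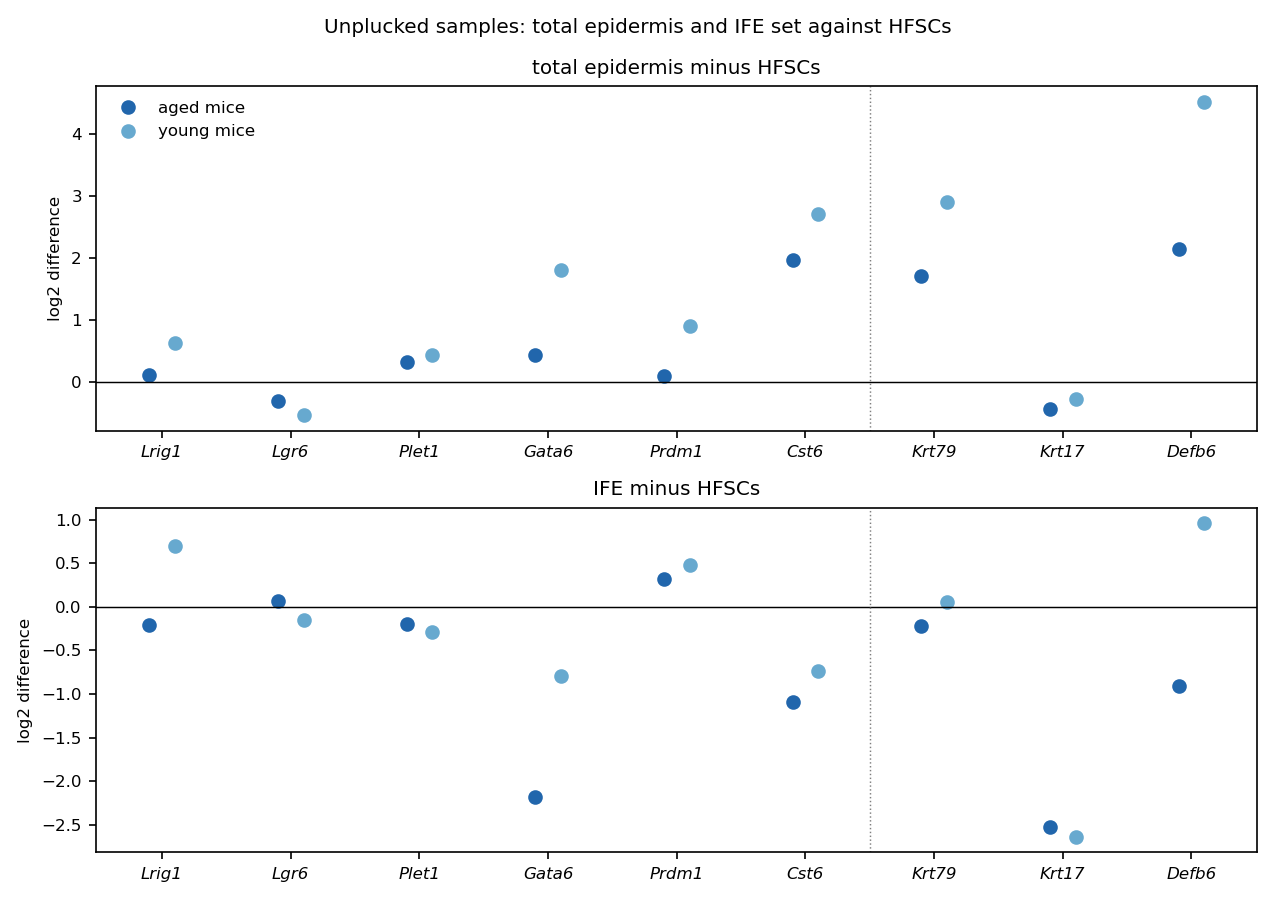
The log2 difference of total epidermis from HFSCs (upper panel) and of IFE from HFSCs (lower panel) is shown for the 6 members and, right of the dotted line, 3 other upper follicle genes. Each point is 1 pair of arrays, aged left of young. Cst6 lies at 1.97 and 2.71 in the upper panel and at -1.10 and -0.74 in the lower one.

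Plucking removes the hair shafts, after which the follicles enter growth, and plucked HFSCs were set against unplucked ones in the 4 kinds of mice. Lrig1 was the member with the highest and most even difference: it was 2.47-fold to 3.37-fold higher in the plucked sample of every pair, but missed the threshold, with an adjusted p of 0.0732. Lgr6 was higher in all 4 pairs by smaller amounts, and Cst6 in 3 of 4. Gata6, Plet1 and Prdm1 were higher in some pairs and lower in others.

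Lrig1 stood at 4.17 in cKO, 4.15 in control, 4.0 in aged and 3.62 in young plucked HFSCs, against 2.87 in cKO, 2.76 in control, 2.25 in aged and 2.12 in young unplucked HFSCs. All 4 plucked arrays lay above all 4 unplucked HFSC arrays, and above the total epidermis and IFE arrays as well. The difference was 1.49 ± 0.23 (SE, n = 4 pairs, limma adjusted p = 0.0732), with single pairs between 1.30 and 1.75. On the other Lrig1 probe it was 2.04 ± 0.27 (adjusted p = 0.0593), higher in 4 of 4 pairs by 1.56 to 2.45. Lrig1 did pass with normexp background correction and quantile normalization (adjusted p = 0.0139), with only genes well above background on every array of the fit (0.0249) and with the mean of its 2 probes (0.0496). Over all alternatives its adjusted p ran from 0.0139 to 0.385, and its difference from 1.35 to 2.04.

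None of the 6 members was called at the main setting, beside 0.393% of 25428 genes called higher and 0.106% called lower by limma. At an unadjusted p under 0.05 there were 4463 genes, and 1 of the 6 members, Lrig1. The whole set of calls was thin: 0 genes passed when any 1 of the 4 pairs was left out or within either slide alone. The median difference of the 6 members was 0.25, beside -0.06 for all genes.

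Lgr6 stood at 2.38 in cKO, 2.32 in control, 2.51 in aged and 2.36 in young plucked HFSCs, against 1.90 in cKO, 1.94 in control, 1.34 in aged and 1.82 in young unplucked HFSCs. The plucked arrays again lay above all unplucked ones, with 0.64 ± 0.26 between them (SE, n = 4 pairs, limma adjusted p = 0.293). The other Lgr6 probe gave 0.26 ± 0.38 (adjusted p = 0.748): it was higher after plucking in the aged (0.75) and young (1.15) pairs and lower in the cKO (-0.30) and control (-0.56) pairs. The difference between the slides in that change was -1.38 ± 0.54 (adjusted p = 0.898) on this probe and -0.42 ± 0.55 (adjusted p = 1) on the probe used.

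Cst6 stood at 1.93 in cKO, 0.63 in control, 2.5 in aged and 0.83 in young plucked HFSCs, against -0.76 in cKO, -0.40 in control, 1.60 in aged and 0.86 in young unplucked HFSCs. Plucked and unplucked arrays overlapped, since the young pair differed by -0.03 and the cKO pair by 2.68. The fit gave 1.15 ± 0.48 (n = 4 pairs, adjusted p = 0.306), with 0.63 when the cKO pair was left out, 1.86 within slide 2 and 0.43 within slide 1. Gata6 differed by -0.75 ± 0.41 (adjusted p = 0.407; -0.11 with normexp and quantile normalization), and was lower after plucking in 3 of 4 pairs. In the control pair it was at least 2.27-fold lower, because it was not well above background in the plucked sample. Plet1 (-0.14 ± 0.40, adjusted p = 0.878) and Prdm1 (-0.14 ± 0.25, adjusted p = 0.796) were each higher in 2 of 4 pairs, and the plucked and unplucked arrays of both overlapped.

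Among the other upper follicle genes none of 7 passed, with a median difference of 0.11. Krt79 and Krt17 were higher in all 4 plucked samples, by 0.68 to 2.40 and by 1.06 to 1.58, with fitted differences of 1.38 ± 0.36 (adjusted p = 0.159) and 1.29 ± 0.24 (adjusted p = 0.0926). The relatives of Lrig1 had differences below 0: Lrig3 was lower in 4 of 4 pairs (-1.19 ± 0.33, adjusted p = 0.178) and Lrig2 in 3 of 4 (-0.58 ± 0.29, adjusted p = 0.369). None of the 6 genes of the LRIG group lay above 0, with a median of -0.64, and none passed. Of the LGR6 group none of 5 tested passed, with Lgr4 at 0.56 ± 0.33 (adjusted p = 0.435) and Lgr5 at -0.33 ± 0.25 (adjusted p = 0.529). The only gene of the lists to pass was Tgm5, which fell by 2.49 ± 0.27 (adjusted p = 0.0451) and was lower in 4 of 4 pairs. Cd34, the bulge sorting gene, differed by -2.40 ± 0.30 and was lower in all 4 plucked samples (adjusted p = 0.0558), although the same gate was used for both. Ly6a, the other sorting gene, differed by -0.44 ± 0.53 (adjusted p = 0.698).

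**Figure D3:**
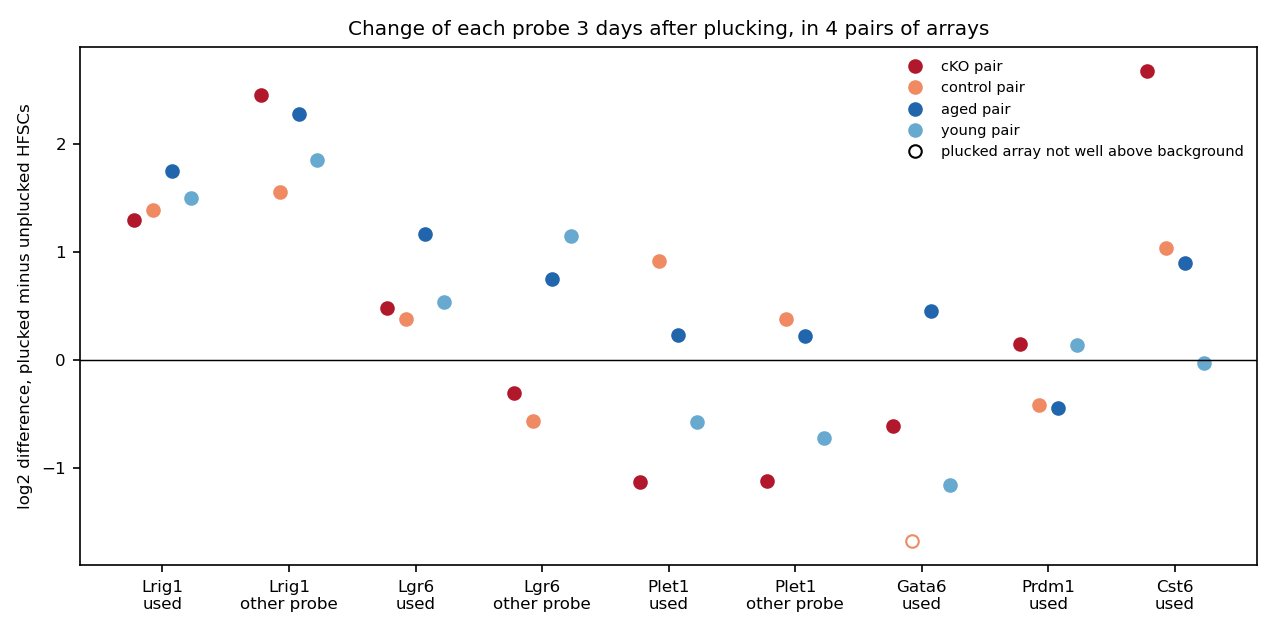
The log2 difference of plucked minus unplucked HFSCs is shown for each of the 9 probes, with 1 point per pair of arrays, in the order cKO, control, aged, young. The open point marks a plucked array that was not well above background. Both Lrig1 probes lie above 1 in all 4 pairs, and the 2 Lgr6 probes differ in sign in the cKO and control pairs.

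Aged and young mice were compared because the study concerns the aging of hair follicles. Gata6 and Cst6 were the members with the highest differences in HFSCs, both higher in the aged sample with and without plucking. No member passed the test, and no gene did. In total epidermis and IFE, the same 2 genes had age differences from -0.06 to 0.39.

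Gata6 stood at 0.18 in aged and -2.76 in young plucked HFSCs, and at -0.27 in aged and -1.61 in young unplucked HFSCs. Both aged arrays lay above both young ones, 7.70-fold with plucking and 2.52-fold without. In total epidermis (0.17 in aged, 0.19 in young) and in IFE (-2.45 in aged, -2.40 in young) the aged samples differed from the young ones by -0.03 and -0.06. The fitted difference was 2.14 ± 0.58 in HFSCs (SE, n = 2 pairs, limma adjusted p = 0.932) and 1.05 ± 0.55 over the 4 kinds of sample (n = 4 pairs, adjusted p = 0.566). With normexp and quantile normalization these were 1.07 and 0.48, and the second was 0.42 without the plucked HFSC pair. The age difference in epidermis minus that in HFSCs was -2.18 ± 0.66 (adjusted p = 0.915; -1.17 with normexp and quantile normalization), so a difference between the populations did not pass either.

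Cst6 stood at 2.5 in aged and 0.83 in young plucked HFSCs, and at 1.60 in aged and 0.86 in young unplucked HFSCs, so the aged arrays were both above the young ones. In IFE the pair differed by 0.39 and in total epidermis by 0.0077. The fit gave 1.21 ± 0.68 in HFSCs (n = 2 pairs, adjusted p = 0.932) and 0.70 ± 0.31 over the 4 kinds of sample (n = 4 pairs, adjusted p = 0.559), higher in the aged sample in 4 of 4 pairs.

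The other members differed less. Plet1 was higher in the aged sample in 4 of 4 pairs by 0.04 to 0.97, a difference of 0.56 ± 0.57 in HFSCs (adjusted p = 0.938), but its other probe gave -0.12 ± 0.50. Prdm1 differed by 0.33 ± 0.36 in HFSCs (adjusted p = 0.939) and Lgr6 by -0.17 ± 0.37 (adjusted p = 0.975). Lrig1 differed by 0.26 ± 0.33 in HFSCs (adjusted p = 0.947), with each aged HFSC array above its young match on the probe used. Both aged epidermis arrays lay below the young ones on that probe, at a difference of -0.38 in total epidermis and -0.77 in IFE. The difference between those age differences was -0.83 ± 0.42 (adjusted p = 0.972). On the other Lrig1 probe, aged HFSCs were lower than young ones without plucking (-0.42) and differed by 0.0087 with it. Both aged epidermis arrays were again the lower ones on it. The difference between the age differences was -0.36 ± 0.51 on that probe (adjusted p = 0.975).

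Over all genes, 0 of 25428 were called between aged and young HFSCs (0%, smallest adjusted p 0.246), and 0 of 24822 over the 4 kinds of sample (0%, smallest adjusted p 0.559). An unadjusted p under 0.05 was reached by 1227 and 2132 genes, and by 1 of the 6 members, Gata6, in HFSCs alone. The test of the difference between populations likewise called 0 genes, with 1324 at an unadjusted p under 0.05, of the members only Gata6. Counted at 2-fold, 2 of 6 members were higher in aged plucked HFSCs (9.96% of genes were) and 1 of 6 in aged unplucked HFSCs (18.5% were). None of the 6 was 2-fold lower in either pair, where 10.2% and 11.5% of genes were. In total epidermis none of 6 was 2-fold apart (12.3% of genes were) and in IFE none of 6 (12.2%).

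None of the other listed genes passed between the ages. The 7 other upper follicle genes had a median difference of 0.24 in HFSCs, beside 0.03 for all genes, with Krt79 at 0.21 ± 0.51 and Krt17 at -0.39 ± 0.33 (adjusted p of 0.977 and 0.936). Lrig2 was at 0.89 ± 0.40 and Lrig3 at -0.05 ± 0.47 (0.932 and 0.996). Lgr4 was at -0.59 ± 0.47 and Lgr5 at 0.31 ± 0.35 (0.935 and 0.94). The sorting genes Cd34 and Ly6a were at -0.27 ± 0.42 and -0.72 ± 0.75 (0.958 and 0.938).

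Col17a1 encodes a transmembrane collagen of the hemidesmosome, and HFSCs of its conditional knockout were set against those of tamoxifen-treated controls. Col17a1 itself stood at 5.79 in cKO and 6.22 in control plucked HFSCs, and at 7.01 in cKO and 7.31 in control unplucked HFSCs, bright in all 4. Whether its probe lies in the deleted part was not determined here, so these levels do not check the genotype. Gata6 and Plet1 were the members with the highest differences, both higher in cKO HFSCs in both pairs. Lrig1, Lgr6 and Prdm1 had fitted differences between 0.01 and 0.10. No member and no gene passed the test.

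Gata6 stood at -2.97 in cKO and -5.20 in control plucked HFSCs, the second not well above background, and at -2.36 in cKO and -3.52 in control unplucked HFSCs. The cKO sample was at least 3.31-fold higher with plucking and 2.23-fold higher without. The fitted difference of 1.69 ± 0.58 (SE, n = 2 pairs, limma adjusted p = 0.735) uses the measured value of the dim array, and was 0.34 with normexp and quantile normalization. Of these 4 values, all but that of unplucked cKO HFSCs were lower than every Gata6 level on slide 1, where the lowest was -2.76.

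Plet1 stood at 2.87 in cKO and 2.62 in control plucked HFSCs, and at 4.0 in cKO and 1.70 in control unplucked HFSCs. The unplucked pair held both the highest and the lowest Plet1 level of the 12 arrays, a 4.91-fold difference, while the plucked pair differed by 0.25. The highest stood on the unplucked cKO array, which had the lowest share of spots well above background (49.71%) and 269 outlier spots, against 129 to 185 on the other arrays. The part of this array in the Plet1 difference was not tested. The fit gave 1.27 ± 0.57 (n = 2 pairs, adjusted p = 0.782) and on the other probe 0.88 ± 0.50 (adjusted p = 0.817), with 0.13 and 1.63 in the plucked and unplucked pairs.

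Cst6 was higher in cKO than in control with plucking (by 1.30) and lower without (-0.35), with a fitted difference of 0.47 ± 0.68 (adjusted p = 0.953). Lrig1 differed by 0.06 ± 0.33 (adjusted p = 0.989), Lgr6 by 0.01 ± 0.37 (0.997) and Prdm1 by 0.10 ± 0.36 (0.985). All 3 of these turned sign when arrays were centred on the median, and Lrig1 and Lgr6 also on their other probes. All 6 fitted differences lay above 0 at the main setting, with a median of 0.29, beside -0.01 for all genes.

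Of 25428 genes 0 were called (0%, smallest adjusted p 0.129), and 1646 had an unadjusted p under 0.05, of the members only Gata6. At 2-fold, 2 of 6 members were higher in cKO plucked HFSCs (11.6% of genes were), Gata6 and Cst6, and 2 of 6 in cKO unplucked HFSCs (18.0% were), Gata6 and Plet1. None was 2-fold lower in either pair, where 12.1% and 21.3% of genes were. No listed gene passed: Krt79 was at 0.57 ± 0.51, Krt17 at 0.19 ± 0.33, Lgr4 at -0.26 ± 0.47, Lgr5 at -0.25 ± 0.35, Lrig2 at 0.27 ± 0.40 and Lrig3 at -0.24 ± 0.47, with adjusted p between 0.892 and 0.97. Cd34 and Ly6a were at -0.46 ± 0.42 and -0.62 ± 0.75 (0.898 and 0.936).

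**Figure D4:**
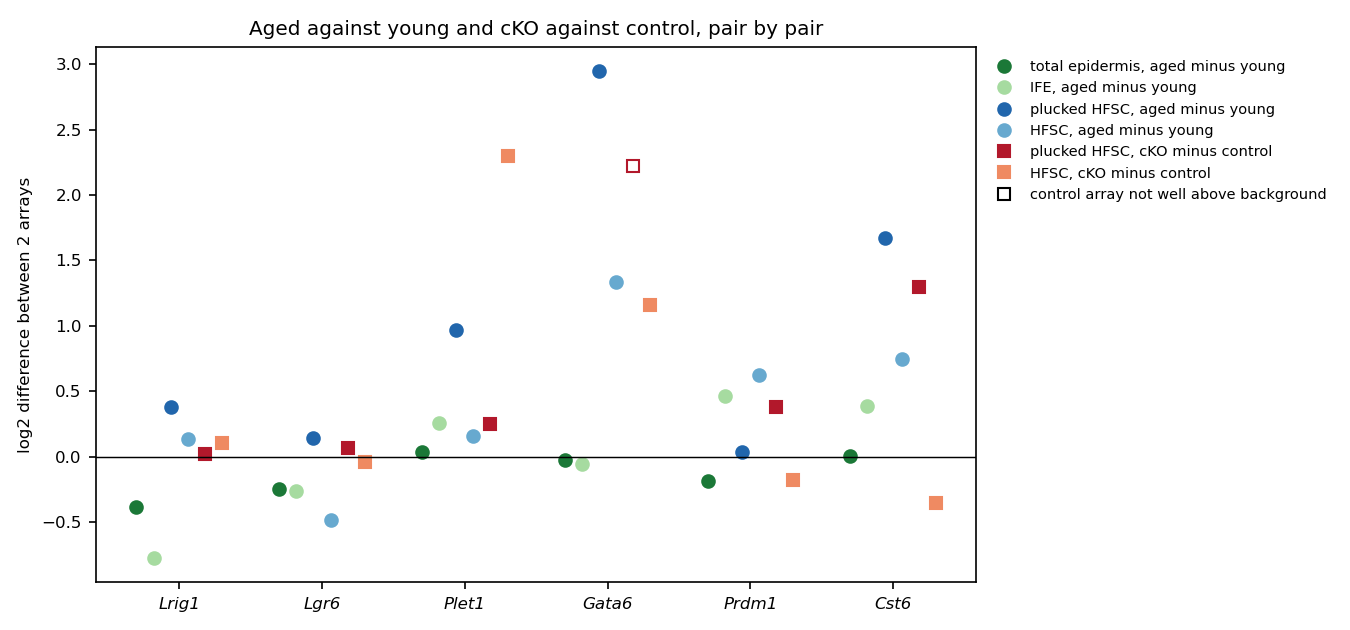
The log2 difference of aged minus young (circles, 4 kinds of sample) and of cKO minus control (squares, with and without plucking) is shown for the 6 genes, with 1 point per pair of arrays. The open square marks a control array that was not well above background. Gata6 lies at 1.33 and 2.95 in aged HFSCs and at -0.03 and -0.06 in aged total epidermis and IFE.

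Control and young HFSCs, both wild type, differ in age, tamoxifen and slide, which cannot be told apart. Gata6 was at least 3.83-fold lower in control than in young HFSCs with plucking and 3.77-fold lower without. Plet1 and Cst6 were lower without plucking (-1.09 and -1.26) and differed by 0.40 and -0.20 with it. The other Plet1 probe was lower in both, at -0.98 with and -2.08 without plucking. In all, 1 of 6 members was 2-fold lower in control plucked HFSCs (12.5% of genes were) and 3 of 6 in control unplucked HFSCs (18.9% were). Lrig1 was higher in control by 0.53 with and 0.65 without plucking.

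For the 3 members with 2 probes, the probes followed each other to different degrees over the 12 arrays. Those of Lrig1 had a Pearson r of 0.96, those of Plet1 0.55 and those of Lgr6 0.39, all over points that share each array's scaling. The Plet1 probes split by slide: the probe used lay 0.88 to 1.56 above the other on the 4 arrays of slide 2, against -0.17 to 0.66 on the 8 arrays of slide 1. For Lgr6 the corresponding gaps, 1.11 to 2.30 on slide 2 and 0.84 to 2.44 on slide 1, overlapped. Statements on Lrig1 after plucking therefore rest on 2 probes that moved together. For aged against young and cKO against control HFSCs, the other Lrig1 probe gave -0.21 and -0.28, against 0.26 and 0.06 on the probe used. Statements on these 2 comparisons of Lrig1, and those on Lgr6 and Plet1, rest on 1 of 2 probes that did not always move together.

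**Figure D5:**
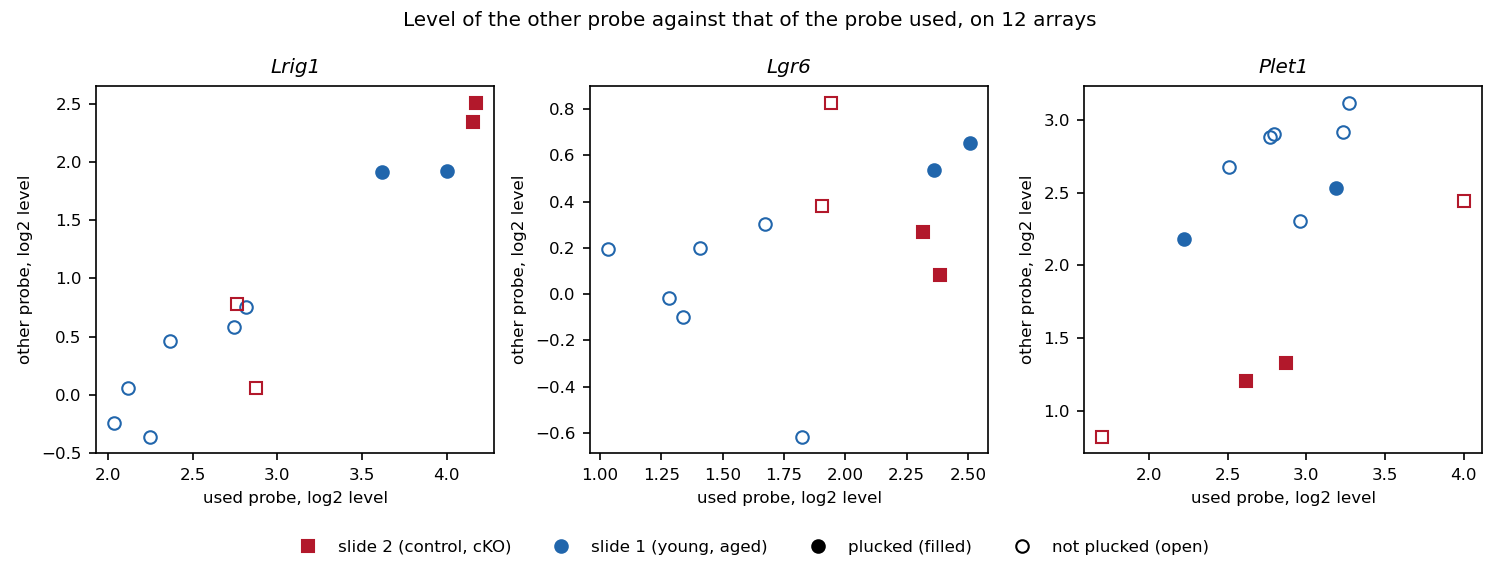
For Lrig1, Lgr6 and Plet1 the log2 level of the other probe is plotted against that of the probe used, with 1 point per array. Squares are arrays of slide 2 and circles arrays of slide 1, and filled points are plucked samples. Lrig1 points lie along 1 line (r = 0.96), while for Plet1 the 4 squares lie below the circles at the same level of the probe used.

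On the probes used, Lrig1 and Lgr6 were the pair of members with the highest correlation. Their Pearson r was 0.84 over the 12 arrays and 0.90 over the 8 HFSC arrays. Gata6 and Cst6 followed with 0.71 and 0.53. The remaining pairs ran from -0.57 to 0.50 over the 12 arrays. These are descriptions, over points that share the scaling of each array and, for the HFSCs, the split by plucking. The other Lgr6 probe, which had an r of 0.39 with the probe used, was not set against Lrig1.

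Against 13658 genes that were well above background on at least 6 arrays, the 3 most like Lrig1 over the 12 arrays were Fam120a (Pearson r 0.96), Smc4, a condensin subunit that compacts chromosomes in mitosis (0.93), and Nans, a sialic acid synthase (0.93). Those most like Lgr6 were the histone gene H4c4 (0.96), Ift74, of intraflagellar transport (0.95), and Gtf2i, a transcription factor (0.95). An r above 0.9 was reached by 30 genes for Lrig1 and by 51 for Lgr6. The genes most like Prdm1 were Deup1 (0.97), Cd37 (0.94) and Gdf3 (0.93), with 29 above 0.9. Those most like Plet1 were Ushbp1 (0.91), Il9r (0.87) and Gsta3 (0.87), and those most like Gata6 were Pdk4 (0.89), Sspo (0.85) and Recql5 (0.85). Pdk4 was not well above background on any array of slide 2, nor was Gata6 on the plucked control array there.

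The 3 genes most like Cst6 included 2 from the list of other upper follicle genes: Krt79 was closest (r 0.91), then Sprr1a, a precursor of the cornified envelope (0.90), and Defb6, a beta-defensin (0.82). Of the 13658 genes only Krt79 exceeded 0.9. By Spearman's rho, 2 of the 3 were again among the top 3, with Sprr1a first (0.96) and Krt79 second (0.87). Defb6 shared the high total epidermis levels of Cst6, at 3.97 and 4.15 in aged and young total epidermis against 1.82 and -0.37 in aged and young HFSCs, a difference of 3.33 ± 0.64 (adjusted p = 0.0708).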

How the data were processed

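RNA of 12 samples was measured on 1-colour (Cy3) Agilent arrays. The intensity values deposited by the authors were made with Agilent Feature Extraction per the file headers, with background subtracted and detrended. The flags deposited beside them, such as well above background, are its own output. The authors' deposited value table holds log2 values, whose making is not given in the sources used here. Its columns followed the levels used here with r of at least 0.99989 once each probe's median was subtracted, so it is centred per probe. Its column medians ran from -0.2 to 0.17, and it was used as an alternative only.

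Control spots and the 129 to 269 outlier spots of each array were not used. None was saturated. Spots of a probe were averaged. Of the probes, 28026 were named through RefSeq by accession, and 27655 kept the name in the files. A gene is its brightest probe by mean level over the arrays. Depth does not apply to arrays: their number limits the precision, and 49.71% to 64.97% of spots were well above background.

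Tests were made with limma 3.58.1 in R 4.3.3 (lmFit, eBayes) and figures with matplotlib 3.10.9 in Python 3.11.15. The genes tested in a fit stood well above background on 2 or more of its arrays, with Benjamini-Hochberg adjustment over all of them and a threshold of 0.05. Plucking, cKO and age in HFSCs came from 1 additive fit of mouse type and plucking over 8 arrays (3 residual degrees of freedom), and age over 4 kinds of sample from 8 arrays (3). Populations came from 6 unplucked arrays with age as a term (2), and differences between age effects or between slides from interactions (2). With 1 array per group, the spread comes from the matched pairs of these fits. The steps were tested on simulated data. Standard errors (SE) are limma's. Differences between 2 arrays have no test.

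The 6 members were always named, with every probe. Genes of the 12 lists around them (74 genes) were named where they passed, except the sorting genes, Lrig2, Lrig3, Lgr4, Lgr5, Krt79 and Krt17, which are given in any case. In the population comparisons Lor, Dct, Thy1, Cd3d, Klk10 and Defb6 are also given, to show the spread within their lists. For likeness, the 3 genes with the highest Pearson r were named, passing over members and predicted genes. The members and lists were chosen with earlier results of these data known. The alternatives were normexp with an offset of 50 and quantile normalization, the authors' table, centring on the median, other filters, the mean over probes, leaving out arrays or pairs, single slides or mouse types, all 12 arrays, Spearman's rho and, chosen after seeing the data, the dimmer probe.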

Additional observations from a re-analysis of the deposited data

How the results depend on the processing

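Each group had 1 array, and age, population, cKO against control and control against young are confounded with slide position or slide, which limits them. Signal limits Gata6, which was not well above background on 1 array. No paired analysis was possible because each group has 1 array and all carry the number 1, so replicate numbers link no samples. The pairs counted beside the fits are arrays matched by mouse type, plucking or age through terms of the fit. For plucking, 127 genes were called, against 1120 with normexp and quantile normalization (726 higher, 394 lower), 22 without a filter, 703 with genes well above background on every array, 273 with the mean over probes and 0 within slide 1, within slide 2 and when any 1 pair was left out (0 to 0). Of the members 0 were called for plucking, and 1, Lrig1, under normexp, under the every-array filter and with the mean over probes. For IFE against HFSCs, 1134 genes were called, 605 without a filter and 301 to 852 with 1 array left out. For total epidermis against HFSCs, 932 genes were called, 1421 under normexp, 327 without a filter and 0 to 858 with 1 array left out, with 0 wherever 1 of both total epidermis arrays or the young HFSC array was missing. The member called there, Cst6, was lost (0 of 6) without a filter, over all 12 arrays and with each array left out (0 to 0). For IFE against total epidermis, 0 genes were called, against 3 under normexp, 1 under the every-array filter, 5 with the mean over probes and 56 over all 12 arrays. The causes were not tested.

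Several uncalled member differences turned sign. For plucking, Plet1 ran from -0.49 to 0.19 with 1 pair left out (0.19 without the cKO and 0.0045 without the young pair). For cKO against control, centring on the median gave -0.11 for Lgr6, -0.060 for Lrig1 and -0.023 for Prdm1, the mean over probes -0.15 for Lgr6 and -0.11 for Lrig1, and the dimmer probe -0.32 for Lgr6 and -0.28 for Lrig1. For aged against young HFSCs, Lgr6 was 0.075 with the mean over probes, and the dimmer probe gave 0.32 for Lgr6, -0.21 for Lrig1 and -0.12 for Plet1. Over 4 kinds of sample, Lgr6 was 0.19 on the dimmer probe and Lrig1 ran from -0.34 to 0.044 with 1 pair left out (0.044 without the IFE pair). For IFE against HFSCs, Lgr6 was 0.019 under normexp, 0.28 with the mean over probes and 0.61 on the dimmer probe, and Plet1 0.18 on the dimmer probe. With 1 array left out, Lgr6 ran from -0.15 to 0.075 and Lrig1 from -0.11 to 0.60. For total epidermis against HFSCs, Lgr6 was 0.012 with the mean over probes and 0.45 on the dimmer probe. For IFE against total epidermis, Prdm1 ran from -0.47 to 0.26 and Lrig1 from -0.46 to 0.19 with 1 array left out. For the difference in age effects, Lgr6 was 0.036 when centred on the median and Plet1 0.33 on the dimmer probe. For the difference in plucking between slides, centring gave -0.015 for Plet1 and -0.061 for Prdm1, and Plet1 was -0.029 with the mean over probes and -0.12 on the dimmer probe. By Spearman's rho, 1 of the 3 genes of like pattern was shared for Lrig1, Lgr6, Gata6 and Prdm1, and 2 for Plet1 and Cst6. For Gata6, normexp with quantile normalization kept the direction of every fitted difference and gave each a smaller size. The authors' table changed no call of a member.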
